A study of Mus musculus with 14 samples.

Results

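The complement system was followed in B16F10 melanomas during adoptive T cell therapy through 9 of its genes: C1qa, C1qb, C2, C3, C4b, Cfb, Serping1, C3ar1 and C5ar1. They were chosen by gene name with earlier results of these same arrays known, so their levels and differences are a description, and no p-value is given for them. All 9 were measured, by 12 of the 41174 probes, and all 9 were among the 17035 genes bright enough to be tested. B16F10 is an established melanoma line of C57BL/6 mice. Every mouse carried B16F10 tumours that had grown for 9 days before the day of transfer (day 0). The untreated arm received nothing further, and the CTL arm received cytotoxic T lymphocytes (CTLs), CD90.1+ cells activated in culture that recognise gp100, a melanocyte protein. The remaining arms received the same CTLs together with an antibody that blocks interferon gamma or together with control rat IgG, injected into the abdomen on days 0 and 2. The untreated and CTL arms each have 4 arrays, from days 1, 3, 5 and 7, each of RNA pooled from 4 tumours. The antibody and IgG arms each have 3 arrays, from days 3, 5 and 7, each of RNA pooled from 3 tumours. There is thus 1 array per arm and day, and the number of arrays limits the precision. A level below is the log2 of the processed signal minus the 75th percentile of the same array, so that 0 is a bright spot and values are compared within a probe and not between probes.

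Complement is a cascade of plasma proteins that tags surfaces for removal and recruits leukocytes. C1q, built of the chains encoded by C1qa, C1qb and C1qc, recognises antibody and dying cells and starts the classical pathway through the proteases C1r and C1s. These cut C4 and C2, whose fragments form an enzyme that cleaves C3, the central component, and factor B (Cfb) forms the corresponding enzyme of the alternative pathway. Serping1 encodes the C1 inhibitor, which switches C1r and C1s off. Cleavage of C3 and C5 releases the anaphylatoxins C3a and C5a, which act through the receptors C3ar1 and C5ar1 on myeloid cells. Liver is the main source of most plasma components, while macrophages are the usual source of C1q. C3, C4, factor B and C1 inhibitor are known to be inducible by interferon gamma in many cell types.

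Of 43379 spots per array, 48.9% to 59.7% were well above background. Of 7 melanoma markers all 7 were bright enough to be tested, with a median log2 difference of 0.04 between CTL and untreated tumours and none called. None of 4 liver plasma protein genes (Alb, Apoa1, Ttr, Fgb) was bright enough to be tested. All 6 genes of an interferon gamma reference list were higher with CTLs, and all 6 were lower with the antibody than with IgG. In bulk tumour RNA, more cells of a type and more RNA per cell cannot be told apart.

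The start-site regions of 4 of the 9 genes were at hand, each running from 250 bases before to 50 bases after the annotated start in RefSeq (GRCm38.p6). They are shown because they were available. C1qb and C3 were highest on different days in CTL tumours. The mean differences of the receptors C3ar1 and C5ar1 between antibody and IgG had opposite signs. That of C3ar1 was not called and its arms overlapped, and that of C5ar1 included background values. All 4 genes lie on the minus strand, and the windows are written 5′ to 3′ along the gene: chr4:136886151-136886450 for C1qb, chr17:57228087-57228386 for C3, chr6:122856108-122856407 for C3ar1 and chr7:16259289-16259588 for C5ar1. Capitals mark matches to the motifs named after the sequences.
C1qb: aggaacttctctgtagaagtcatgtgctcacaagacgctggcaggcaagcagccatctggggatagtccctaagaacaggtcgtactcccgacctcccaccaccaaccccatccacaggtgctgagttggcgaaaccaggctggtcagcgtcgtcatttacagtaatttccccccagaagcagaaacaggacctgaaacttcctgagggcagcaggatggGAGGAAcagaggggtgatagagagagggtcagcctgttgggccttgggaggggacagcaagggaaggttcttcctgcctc
C3: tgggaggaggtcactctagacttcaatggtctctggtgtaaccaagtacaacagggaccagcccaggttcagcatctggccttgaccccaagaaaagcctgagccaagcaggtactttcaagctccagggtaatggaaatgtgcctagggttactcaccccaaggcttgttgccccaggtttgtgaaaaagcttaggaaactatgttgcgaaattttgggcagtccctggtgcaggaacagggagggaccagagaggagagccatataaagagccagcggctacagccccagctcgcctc
C3ar1: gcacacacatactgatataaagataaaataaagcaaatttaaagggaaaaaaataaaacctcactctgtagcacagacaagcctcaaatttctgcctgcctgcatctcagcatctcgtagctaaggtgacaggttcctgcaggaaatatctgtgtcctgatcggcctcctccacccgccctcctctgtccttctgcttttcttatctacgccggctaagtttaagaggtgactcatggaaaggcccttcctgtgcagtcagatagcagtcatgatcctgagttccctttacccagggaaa
C5ar1: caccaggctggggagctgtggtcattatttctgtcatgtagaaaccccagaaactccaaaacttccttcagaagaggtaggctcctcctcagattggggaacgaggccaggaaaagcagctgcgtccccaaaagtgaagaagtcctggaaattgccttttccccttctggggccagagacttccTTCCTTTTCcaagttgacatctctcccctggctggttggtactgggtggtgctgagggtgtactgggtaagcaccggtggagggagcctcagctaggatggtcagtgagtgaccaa
The motifs searched, on both strands, were the interferon gamma-activated site TTCNNNGAA, the core of the interferon-stimulated response element GAAANNGAA, and GAGGAA, an Ets core of the kind bound by PU.1, a myeloid transcription factor. Matches of the first occurred in 8.3% of 32851 windows of this length over all genes, of the second in 8.56% and of the third in 28.3%. These windows held GAGGAA in C1qb, beginning 30 bases before the start, and the response element core in C5ar1 on the opposite strand, beginning 66 bases before the start. No motifs overlapped. This says only which letters these windows hold.

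Of the 9 genes 8 were higher in CTL than in untreated tumours over days 3, 5 and 7, the exception being C5ar1. The median log2 difference over the 9 was 2.22, beside -0.10 over all genes tested. The 8 were called at an adjusted p under 0.05 by limma over all genes. In this comparison 31.5% of genes were called and 10.1% were called higher, and nothing is read from the count because the genes were chosen with these differences known. On day 1 the same-day differences of the 9 genes lay between -0.89 and 0.43, with a median of 0.12, and C5ar1 gave the lowest. Both ends include background values, as C5ar1 was at background on both arrays and C3ar1, the highest, on the untreated array. For the 8 genes called, then, the larger CTL differences were those of day 3 and later.

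**Figure D1:**
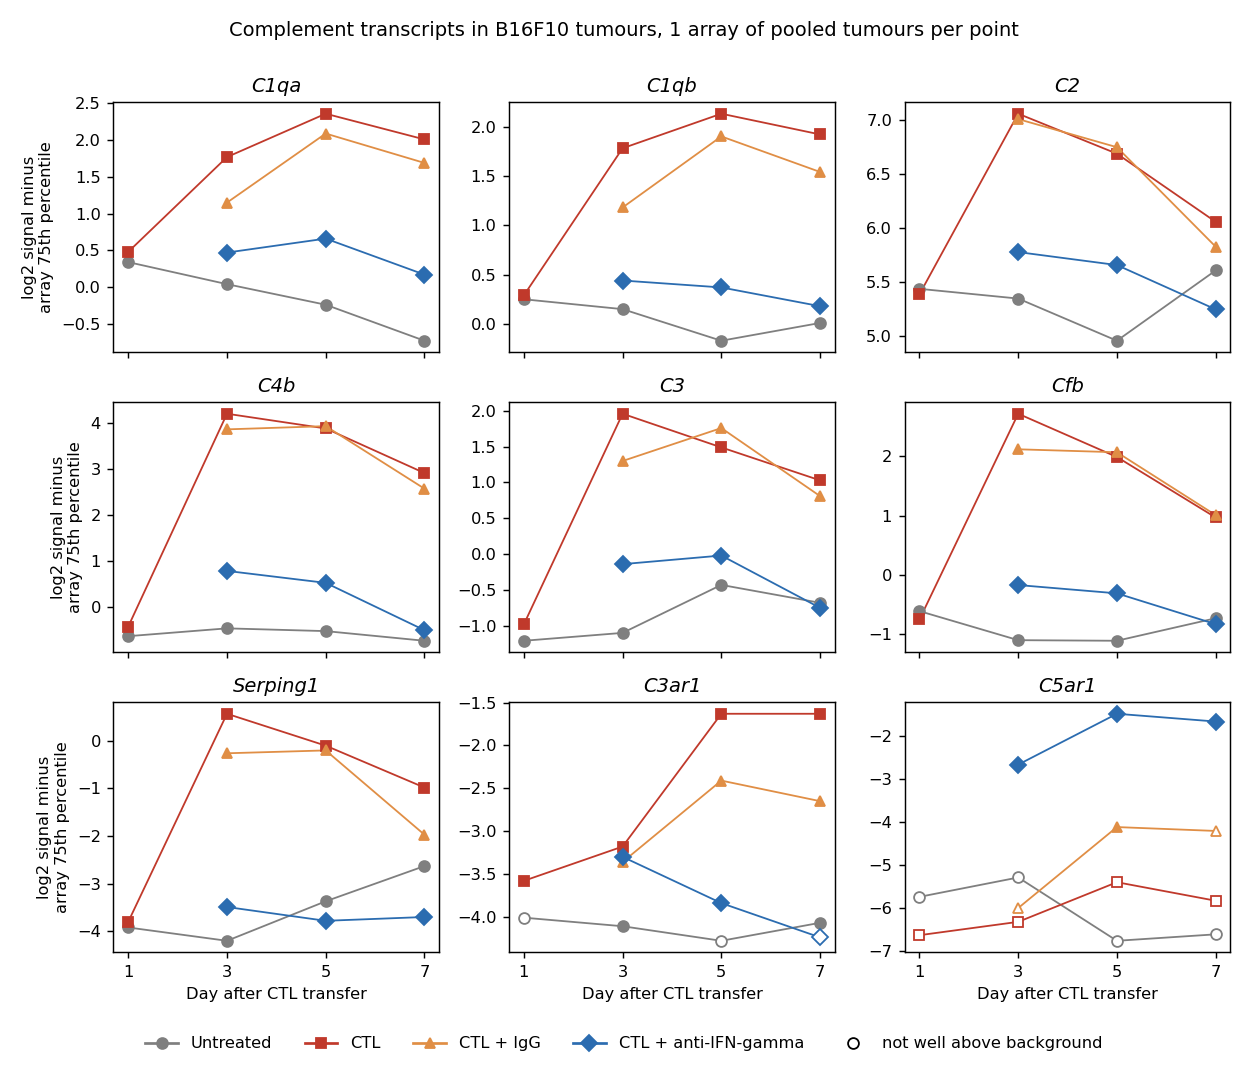
Level of each gene (log2 of the processed signal minus the array's 75th percentile, vertical) against the day after CTL transfer (horizontal), 1 point per array of pooled tumours, with arms in colour and open symbols where the probe was not well above background. CTL and IgG arrays rise above the others from day 3 in C1qa, C1qb, C2, C4b, C3, Cfb and Serping1, whereas C5ar1 is highest in the antibody arm.

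C1qa, the A chain of C1q, was measured by a probe at chromosome 4, 136168570 to 136168629 (mm8, as for all probe positions). Its level was 0.34, 0.04, -0.24 and -0.73 in untreated tumours of days 1, 3, 5 and 7, and 0.48, 1.77, 2.36 and 2.01 in CTL tumours. With IgG it was 1.15, 2.09 and 1.69 on days 3, 5 and 7, and with the antibody 0.47, 0.66 and 0.17. The CTL and IgG arrays from day 3 on lay above every other array, and the antibody arrays lay between them and the untreated arrays of the same days. The difference was 2.35 ± 0.24 for CTL against untreated tumours (log2 ± SE, n = 3 days), which is 5.11-fold, and -1.21 ± 0.24 for antibody against IgG.

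C1qb, the B chain, lies nearby (chromosome 4, 136152739 to 136152798) and followed the same course. Its level was 0.25, 0.15, -0.17 and 0.01 in untreated tumours and 0.29, 1.78, 2.13 and 1.92 in CTL tumours of days 1, 3, 5 and 7. It was 1.18, 1.90 and 1.54 with IgG and 0.44, 0.37 and 0.18 with the antibody. Again the CTL and IgG arrays of days 3 to 7 stood apart from all others, with the highest value on day 5 in both arms. The difference was 1.95 ± 0.18 with CTLs and -1.21 ± 0.18 with the antibody.

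C4b encodes the complement component C4 and had the largest CTL difference of the 9 genes (chromosome 17, 34337472 to 34337531). Its level was -0.64, -0.47, -0.53 and -0.74 in untreated tumours and -0.43, 4.20, 3.88 and 2.91 in CTL tumours. It was 3.86, 3.93 and 2.57 with IgG and 0.78, 0.52 and -0.51 with the antibody. Untreated arrays barely varied, CTL and IgG arrays were far above them from day 3, and the antibody array of day 7 lay within the untreated range. The CTL difference was 4.24 ± 0.22, or 18.9-fold, and the antibody difference was -3.19 ± 0.22, or 9.13-fold lower than with IgG. The array design lists an accession of C4a, the near-identical neighbour of C4b, for the same probe, so the signal may come from either gene. A separate probe named for C4a stayed at background on all arrays, with mean same-day differences of 1.99 and -1.85 between those background values.

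C2 encodes the serine protease that joins C4 in the classical C3 convertase (chromosome 17, 34470686 to 34470745). Its level was 5.44, 5.35, 4.96 and 5.61 in untreated tumours and 5.39, 7.06, 6.69 and 6.06 in CTL tumours. It was 7.01, 6.75 and 5.83 with IgG and 5.78, 5.66 and 5.25 with the antibody. CTL and IgG arrays were highest on day 3 and had come down to within 0.45 and 0.22 of the untreated array by day 7. The CTL difference was 1.30 ± 0.28, the smallest of the 8 that were called. The antibody difference of -0.97 ± 0.28 was not called. It was negative on each day and the arms did not overlap, which was so for 36.1% of all genes in this comparison. A second C2 probe gave 1.45 and -0.97 for the same differences.

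C3, the component on which the pathways converge, was read by a probe printed as 10 spots (chromosome 17, 56889328 to 56889387). Its level was -1.21, -1.10, -0.43 and -0.68 in untreated tumours and -0.98, 1.96, 1.49 and 1.03 in CTL tumours. It was 1.30, 1.76 and 0.81 with IgG and -0.14, -0.02 and -0.75 with the antibody. The antibody array of day 3 lay above all untreated arrays, and that of day 7 lay within their range. The CTL difference was 2.22 ± 0.25, or 4.67-fold, and the antibody difference was -1.59 ± 0.25, or 3.02-fold lower. A second C3 probe stayed at background on all arrays and gives no value.

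Cfb, the serine protease of the alternative pathway (chromosome 17, 34464613 to 34464969), had a level of -0.61, -1.10, -1.11 and -0.73 in untreated tumours. It was -0.75, 2.72, 1.99 and 0.97 in CTL tumours of days 1, 3, 5 and 7. It was 2.12, 2.07 and 1.01 with IgG and -0.17, -0.31 and -0.83 with the antibody. The CTL and IgG arrays nearly coincided on days 5 and 7, and all of them lay above both other arms. The CTL difference was 2.87 ± 0.34, or 7.33-fold, and the antibody difference was -2.17 ± 0.34, or 4.51-fold lower.

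Serping1, the C1 inhibitor (chromosome 2, 84566650 to 84568156), had a level of -3.92, -4.20, -3.37 and -2.63 in untreated tumours. It was -3.80, 0.57, -0.10 and -0.98 in CTL tumours. It was -0.26, -0.20 and -1.97 with IgG and -3.49, -3.78 and -3.70 with the antibody. Untreated tumours were higher on day 7 than on day 3 by 1.57 while CTL tumours were lower by 1.55. The arms thus came closer from day 3 to day 7 without overlapping. Between CTL and untreated tumours the arms did not overlap for 40.8% of all genes. The CTL difference was 4.77 on day 3, 3.27 on day 5 and 1.65 on day 7, with a fitted mean of 3.23 ± 0.57. The antibody difference was -2.85 ± 0.57. After another background correction (normexp) the CTL difference was 1.86 and the antibody difference -1.47.

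C3ar1, the receptor for C3a, was dim (chromosome 6, 122813823 to 122813882) and its probe was well above background on 11 of 14 arrays. Its level was -4.01, -4.11, -4.28 and -4.07 in untreated tumours and -3.58, -3.18, -1.63 and -1.63 in CTL tumours. It was -3.36, -2.41 and -2.65 with IgG and -3.30, -3.84 and -4.24 with the antibody. The IgG and antibody arrays were alike on day 3 and parted afterwards, with differences of 0.06, -1.43 and -1.59 on days 3, 5 and 7. The CTL difference was 2.01 ± 0.43, and 0.67 with the normexp background correction. The antibody difference of -0.99 ± 0.43 was not called, and these arms overlapped. The second, dimmer probe was well above background on 3 arrays and gave 3.05 and -1.52 for the same differences.

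C5ar1, the receptor for C5a (chromosome 7, 15407044 to 15407103), ran the other way. Its level was -5.74, -5.29, -6.76 and -6.61 in untreated tumours and -6.63, -6.32, -5.40 and -5.83 in CTL tumours, and in both arms the probe stayed at background throughout. It was -6.00, -4.12 and -4.21 with IgG, measured above background on day 5 alone, and -2.67, -1.49 and -1.67 with the antibody, above background on all 3 arrays. Every antibody array was thus brighter than every array of the other arms. On day 5, when both arrays were above background, the antibody array was 2.63 higher than the IgG array on the log2 scale. Over the 3 days the antibody arm was at least 4.26-fold higher than the IgG arm and at least 5.47-fold higher than untreated tumours. These bounds set its mean against the lowest signal well above background on each array where C5ar1 was at background. The fitted difference from IgG was 2.83 ± 0.57, which includes background values of 2 IgG arrays. No fold is given for CTL against untreated tumours, since both were below background. With the normexp correction, which compresses dim signals, the fitted difference from IgG was 0.95.

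**Figure D2:**
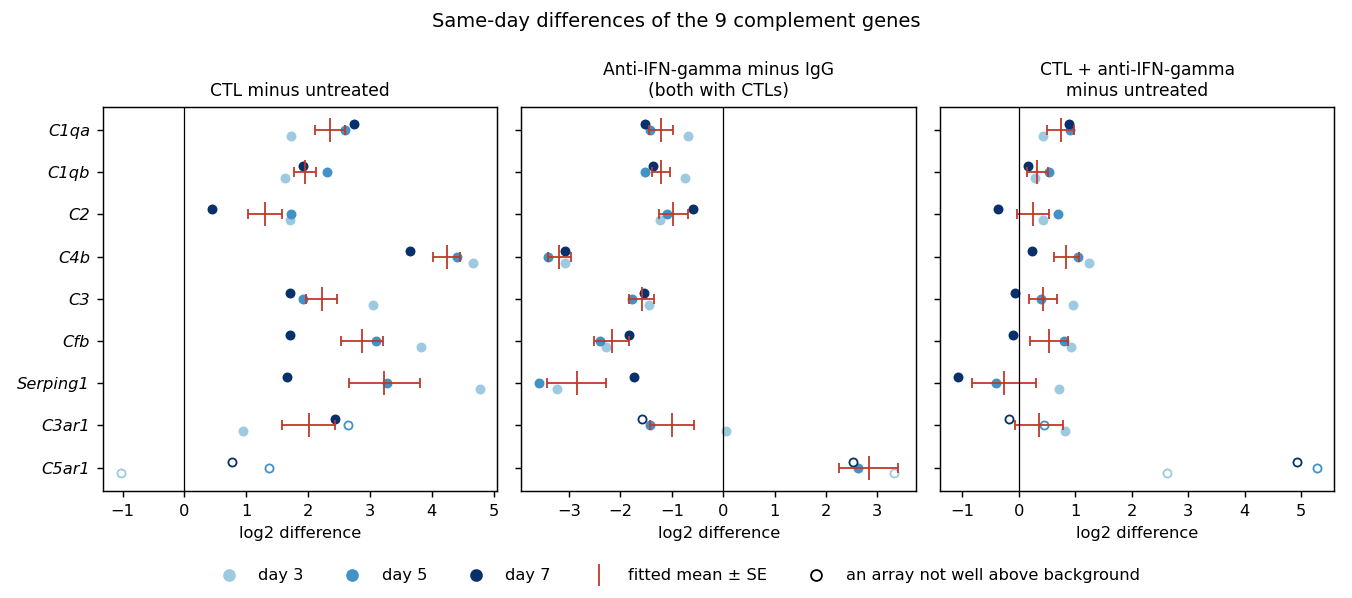
Same-day log2 differences (horizontal) of the 9 genes (vertical) on days 3, 5 and 7 (points) with the fitted mean ± SE (red), in 3 comparisons. Points are open where an array was not well above background, and no mean is drawn where a whole arm was not. The middle panel has all genes but C5ar1 at a negative mean.

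Against IgG, the antibody comparison thus had 6 of the 9 genes called lower (C1qa, C1qb, C3, C4b, Cfb and Serping1). C5ar1 was called higher, but it entered the fit only through the antibody arrays and 1 IgG array on which it was above background, so this call supports nothing. Over all genes, 12.6% were called in this comparison, 5.93% lower and 6.63% higher. The median over the 9 genes was -1.21, beside 0.06 over all genes. A fit of all 14 arrays called 2 genes of the 17035 in this comparison, none of them among the 9, with the same log2 differences. Without the arrays of day 5, C4b was the only one of the 9 still called. Without day 5, the CTL comparison called 4 of the 9 (C1qa, C1qb, C3 and C4b).

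How far the antibody arm stood from untreated tumours differed among the genes and over time. This comparison shares its arrays with both others, and 0.158% of genes were called in it, 27 in all. C5ar1 was among them, with the same reserve about how it entered the fit. C4b was higher by 1.25, 1.05 and 0.23 on days 3, 5 and 7, with a mean of 0.84 ± 0.22. C1qa was higher by 0.43, 0.90 and 0.89, with a mean of 0.74 ± 0.24. C1qb was higher by 0.29, 0.54 and 0.16, with a mean of 0.33 ± 0.18. The arms did not overlap for C1qa and C1qb, nor for 11.4% of all genes. C2, C3, Cfb, Serping1 and C3ar1 each had a positive difference on day 3, between 0.43 and 0.96, and a negative one on day 7, between -1.08 and -0.07. None of these was called. The call for C5ar1 held in 6 of 13 alternatives and was lost when day 5 or day 7 was left out.

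Control IgG itself left most levels close to those of CTLs alone. The mean difference of IgG from CTL tumours lay between -0.66 and -0.07 for 8 genes and was 1.07 ± 0.57 for C5ar1, which was below background on all CTL arrays. C2, C3, C4b and Cfb differed by 0.21 or less in size. C3ar1 was lower with IgG on every day, by 0.18, 0.78 and 1.02, and C1qa, C1qb and Serping1 were also lower on every day, with means of -0.40, -0.40 and -0.64.

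The genes that were high with CTLs were sorted into 2 sets by their order of days in CTL tumours, described from 1 array per day without a test. Over days 3 to 7, in CTL tumours C2, C3, C4b, Cfb and Serping1 were highest on day 3 and lowest on day 7, with a decline between those days of 0.99, 0.92, 1.29, 1.75 and 1.55. C1qa, C1qb and C3ar1 were instead lowest on day 3, and were 0.24, 0.14 and 1.55 higher on day 7. In the IgG arm day 7 was likewise below day 3 by 0.50 to 1.71 in the first set and above it by 0.36 to 0.71 in the second. The day of the highest level did not divide the sets there, since C3, C4b and Serping1 were highest on day 5, as were C1qa, C1qb and C3ar1. In the antibody arm day 7 minus day 3 was negative in both sets, from -1.29 to -0.21 in the first and from -0.95 to -0.26 in the second. Across the 14 arrays the pairwise correlations were 0.905 to 0.984 within the first set, 0.904 to 0.972 within the second and 0.635 to 0.944 between them. The sets were drawn from these same arrays, so higher values within than between them show nothing further. C5ar1 correlated with the other genes at -0.29 to 0.02. These arrays share slides and arms, and the coefficients describe them only.

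The genes closest in pattern were taken by Pearson's r over the 14 arrays among all genes tested. C4b was closest to H2-Q10, H2-Q2 and H2-Q7 (r from 0.994 to 0.995), non-classical MHC class I genes whose probes may cross-react. Cfb was closest to Bst2, Ifitm3 and Sp110 and Serping1 to A530032D15Rik, Cd274 and AK080093, while C3 was closest to C4b, Klrk1 and Il2rg. C2 was closest to Gabrd, Shisa5 and Ccdc103. C1qa was closest to C1qc (r = 0.994), the third chain of the same protein, and to Syk and Cd48. C1qb was closest to Nr1h3, Tyrobp and Mpeg1, and C3ar1 to Ctsb and Tmem37. For C5ar1 the closest genes were Nostrin (0.808), Tmem98 (0.805) and Tcf12 (0.787), coefficients that rest mostly on background values, since C5ar1 was above background on 4 of 14 arrays and Nostrin on 9.

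C4b, Cfb and C2 are neighbours in the MHC class III region, with probes of Cfb and C2 at 127 and 133 kb from that of C4b. Of 15 other genes tested within 100 kb of this span, 1 was higher with CTLs and 2 were lower, and their median log2 difference was -0.13. Over all genes 31.5% were called in this comparison, in either direction. Nelfe, between C4b and Cfb, had a log2 difference of -0.51 ± 0.14 (limma adjusted p = 0.0289), Atf6b had -0.43 ± 0.10 (limma adjusted p = 0.0153), and Skiv2l, Dxo and Stk19 were not called. The gene that was higher was an unnamed transcript, NAP108488-1 in the array design, 93.7 kb from the C4b probe. Its difference was 2.04 ± 0.43 with CTLs (limma adjusted p = 0.0111) and -2.40 ± 0.43 with the antibody (limma adjusted p = 0.0112). The Stk19 probe lies beside it, at 95.4 kb. Whether NAP108488-1 belongs to C4a, the neighbour of C4b, was not tested.

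**Figure D3:**
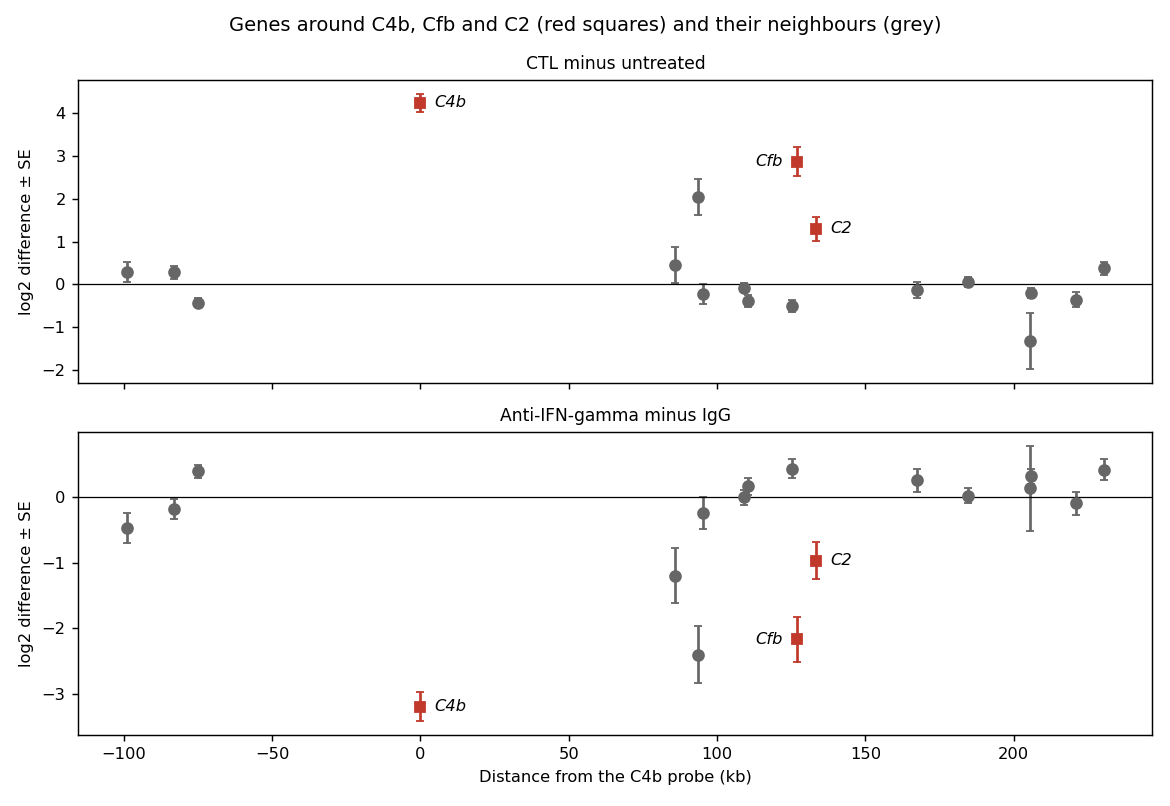
Log2 difference ± SE (vertical) against distance from the C4b probe in kb (horizontal) for C4b, Cfb and C2 (red squares) and 15 other genes tested nearby (grey), for CTL minus untreated (top) and antibody minus IgG (bottom). The grey point at 2.04 in the top panel and -2.40 in the bottom panel is NAP108488-1, and most other neighbours lie near 0.

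Among 49 other complement genes, listed from general knowledge of the pathway with earlier results known, 22 were bright enough to be tested. With CTLs 9 were called higher and none lower, with a median of 0.775. Over all genes 31.5% were called with CTLs and 10.1% were called higher. In the initiation group C1qc rose by 2.44 ± 0.23, C1ra (the protease C1r) by 2.54 ± 0.40, C1s1 (the protease C1s) by 1.36 ± 0.28 and C1rl by 0.79 ± 0.13 (limma adjusted p from 0.000438 to 0.0105). Of the alternative pathway, properdin (Cfp), which stabilises its convertase, rose by 1.37 ± 0.22 (limma adjusted p = 0.00361). Factor D (Cfd) had a difference of 0.97 ± 0.46 and was not called (limma adjusted p = 0.139). Among receptors and binding partners, the integrin chains of complement receptors 3 and 4 rose. Itgam was at least 2.20-fold higher than in untreated tumours, where it was below background. Over days 3, 5 and 7 it was well above background only on CTL and IgG arrays, the arms where it was high. Its place among the 9 called therefore supports nothing. The Itgam call was lost with normexp, with all 14 arrays, without day 3 and without day 5. Itgax rose by 2.28 ± 0.27, or by 1.36 as the mean over its kept probes, and Itgb2 by 1.69 ± 0.18. Cpb2, a carboxypeptidase that inactivates anaphylatoxins, rose by 1.30 ± 0.39 (limma adjusted p = 0.0386), although its arms overlapped. That call was lost in 6 alternatives, with limma adjusted p of 0.163 without day 3 and 0.334 without day 5.

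None of the 3 terminal genes tested was called, and Hc, the mouse gene for C5 and source of the ligand of C5ar1, had a difference of 0.90 ± 0.46 (limma adjusted p = 0.169). On day 1, outside the main fit, the Hc difference was 3.26 from 1 array per arm. With all 14 arrays the Hc difference was 1.49 and was not called. C5ar2, the second C5a receptor, had -0.79 ± 0.35 (limma adjusted p = 0.113). Of 5 regulators tested Cpb2 was the one called.

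With the antibody, 6 of the 22 were called lower than with IgG and none higher, with a median of -0.205 (5.93% and 6.63% over all genes). C1ra fell by 2.15 ± 0.40, C1qc by 1.38 ± 0.23, C1s1 by 1.20 ± 0.28 and C1rl by 0.59 ± 0.13 (limma adjusted p from 0.00901 to 0.0307). C1ra was 2.80, 2.42 and 1.21 lower on days 3, 5 and 7, and Serping1, whose protein inhibits C1r, had differences of -3.23, -3.58 and -1.73. Itgam was at least 3.55-fold lower, being below background in the antibody arm, and Itgb2 fell by 0.95 ± 0.18. The Itgam call, 1 of the 6, carries the same reserve as its call with CTLs and supports nothing. Itgax, which pairs with Itgb2, had a difference of -0.07 ± 0.27 (limma adjusted p = 0.878). Against untreated tumours Itgax alone of the 22 was called in the antibody arm, higher by 2.07 ± 0.27 (limma adjusted p = 0.0468), a call lost in most alternatives. Cfp (-0.67 ± 0.22, limma adjusted p = 0.0806), Cfd (-0.74 ± 0.46), Hc (0.36 ± 0.46) and C5ar2 (0.89 ± 0.35, limma adjusted p = 0.133) were not called. Without day 5 none of the 22 was called lower with the antibody and 3 were called higher with CTLs, and without day 3 these counts were 1 and 5.

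**Figure D4:**
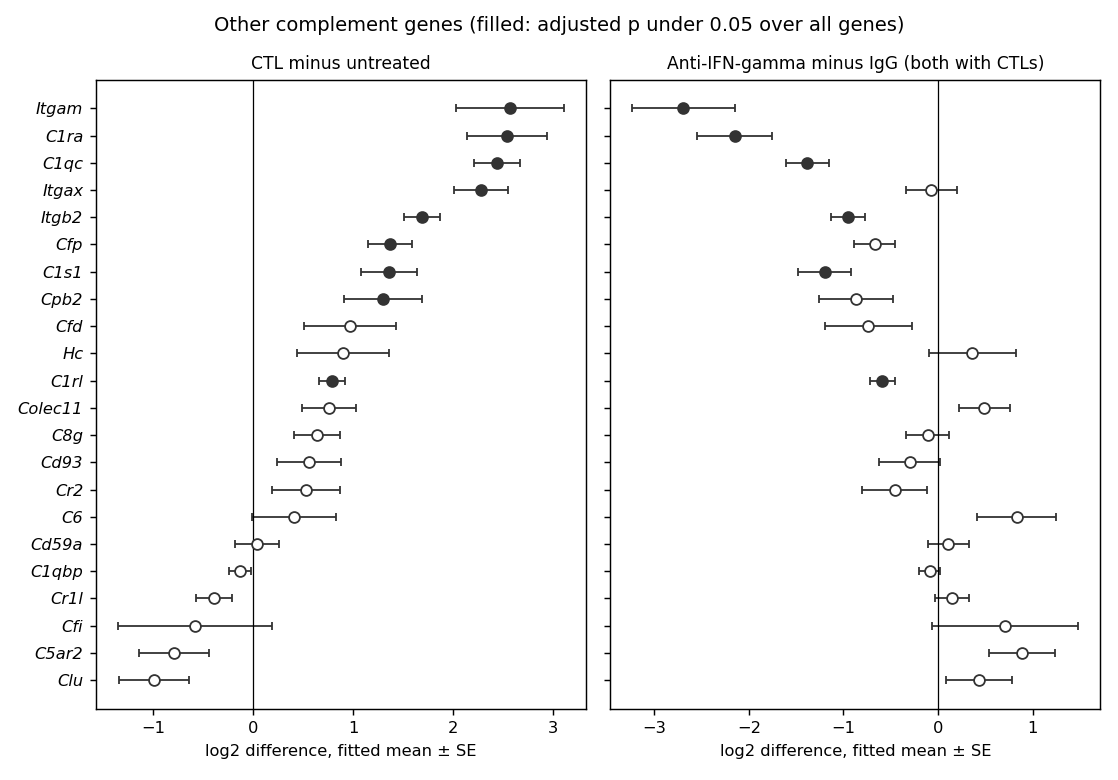
Fitted log2 difference ± SE (horizontal) of the 22 other complement genes tested (vertical), for CTL minus untreated (left) and antibody minus IgG (right), filled where the limma adjusted p was under 0.05. The 9 filled points on the left are all positive and the 6 on the right all negative.

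Markers of myeloid cells moved with the same contrasts. Over all genes 31.5% were called with CTLs, 10.1% higher, and 12.6% with the antibody, 5.93% lower. Of 11 macrophage markers, 9 were called higher with CTLs (median 2.22) and 7 lower with the antibody (median -1.41). Their summed linear level, in units of the array's 75th percentile, was 22.5 to 24.8 in untreated, 82.9 to 110 in CTL, 62.4 to 117 in IgG and 37.4 to 66.0 in antibody tumours over days 3 to 7. Lyz2 made up 73.1% to 91.8% of these sums. Without it the sums of the other 10 were 3.57 to 4.33, 17.7 to 24.4, 13.4 to 22.7 and 3.93 to 6.23 in the same order. None of the 11 was at or below background throughout any arm. The median macrophage marker was 1.81, 2.27 and 2.34 higher with CTLs on days 3, 5 and 7, and C1qa was 1.73, 2.60 and 2.74 higher. C4b was 4.67, 4.41 and 3.64 higher. Single macrophage markers spread widely around their median, from 4.64, 4.33 and 3.02 for Fcgr4 to -0.67, 0.75 and 0.52 for Mertk. The part that macrophage number plays in the differences of C1qa and C4b was not tested. Of 8 T cell markers 6 were called higher and 1 lower with CTLs (median 2.46), and 3 lower and 1 higher with the antibody, Cd8b1 being the exception in both. Of 5 dendritic cell markers tested 2 were called higher with CTLs and 1 lower with the antibody. Of 5 fibroblast markers tested, a possible source of C1r, C1s and C3, 1 was called higher with CTLs and none was called with the antibody.

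The same setting beside cell markers was made for C5ar1, a receptor of neutrophils and macrophages. Of 11 neutrophil markers 5 were tested, and their summed level was 0.290 to 1.02 in untreated, 1.36 to 6.97 in CTL, 1.33 to 50.3 in IgG and 0.299 to 0.687 in antibody tumours. The 50.3 was that of 1 array, IgG on day 7. S100a9 differed between IgG and CTL tumours by 0, -1.63 and 5.28 on days 3, 5 and 7. S100a8, Csf3r and Mmp8 were not well above background on any antibody array, the arrays on which C5ar1 was brightest. The other neutrophil markers tested, S100a9 and Mpo, were well above background on 3 and 2 antibody arrays. Of the 11 macrophage markers 7 were called lower with the antibody than with IgG, as given above. Of 7 mast cell markers 3 were tested and none was called in any of the 3 comparisons, with a summed level of 0.0961 to 0.153 in the antibody arm. Of 7 endothelial markers 6 were tested, and 4 were called higher with the antibody and none lower (6.63% and 5.93% over all genes). Their summed level was 1.44 to 2.41 in untreated, 0.884 to 0.989 in CTL, 0.562 to 0.696 in IgG and 1.11 to 1.14 in antibody tumours. The part of any of these cell types in the C5ar1 difference was not tested.

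**Figure D5:**
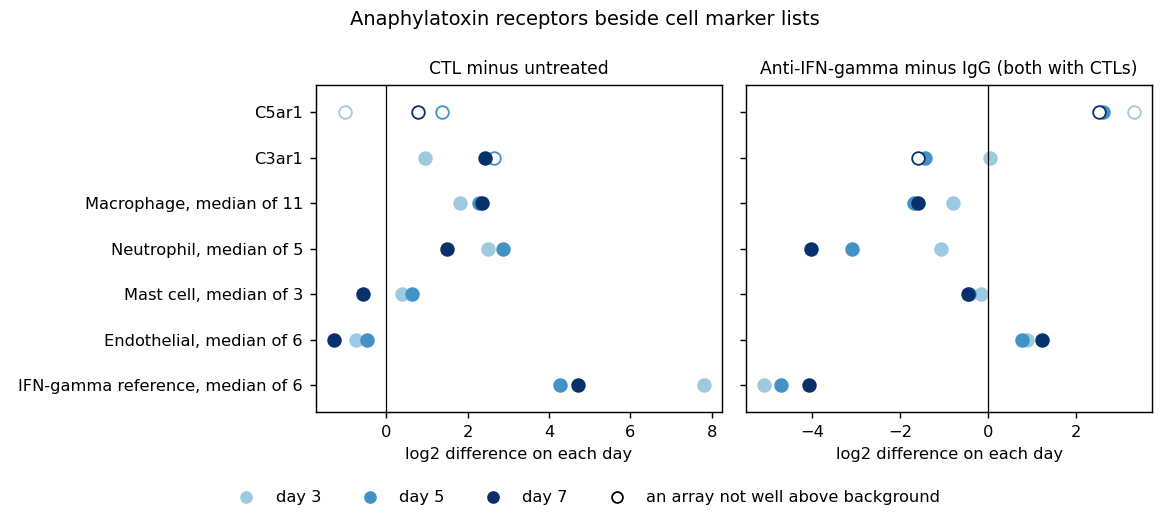
Log2 difference on days 3, 5 and 7 (horizontal) of C5ar1 and C3ar1 and the median of the tested members of the macrophage, neutrophil, mast cell, endothelial and interferon gamma reference lists (vertical), for CTL minus untreated (left) and antibody minus IgG (right), with open points where a receptor was not well above background on an array. On the right the endothelial median lies above 0 on every day, as C5ar1 does, and the other 4 medians lie below 0.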

How the data were processed

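RNA of pooled tumours was hybridised to Agilent 1-colour arrays, 14 on 4 slides. Spot intensity, linear, was deposited as output of Agilent Feature Extraction 9.5, a version taken from the submitters' processing notes. Its processed signal has background subtracted, per the file headers. A log2 table of the same arrays, also deposited, served as an alternative. Each of its columns correlated at r = 1 with the log2 processed signal and lies on that scale, shifted so that its 75th percentile is near 0, with column medians from -3.54 to -3.14.

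Levels are log2 processed signals from the scanner files, scaled to each array's 75th percentile over its 43379 non-control spots. Spots of a probe were averaged without outlier spots. A probe was kept if well above background on at least 3 arrays, with the brightest kept probe per gene. No value of the 9 genes was missing. Names were taken through RefSeq accessions for 24367 of 41174 probes, and others kept the file's name.

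Differences were fitted with limma 3.58.1 in R 4.3.3 (lmFit, eBayes) on the 12 arrays of days 3, 5 and 7, with arm and day as terms, two-sided, with Benjamini-Hochberg adjustment over all genes at a threshold of 0.05. Day equals slide, so the day term pairs arrays of 1 slide, from the labels and the file headers. Deviations of same-day arrays from the means of their arms correlated at a median of 0.129 over 18 pairs (range -0.0442 to 0.510). Slide position was fixed for each arm and cannot be told apart from it. The p-values measure spread between days of pooled tumours, not between mice. Where a probe was below background throughout an arm, the bound sets the brighter arm against the dimmest spot that counted as well above background on each array, or the probe's own signal where higher. The fit was tested on simulated data. The 9 genes and all lists were chosen with earlier results of these data known. Genes named outside the 9 are complement genes that passed or are partners of a member, up to 3 of the most correlated genes per member (some items are not reported here), and the neighbours on chromosome 17, the last chosen after their values were seen.

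Alternatives were other scalings, normexp background correction, the authors' table, other filters, the mean over probes, all 14 arrays, only the arms compared, day left out or as a random block, and each day left out. Protein sequences and a genome were not used here.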

Additional observations from a re-analysis of the deposited data

How the results depend on the processing

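The alternatives of filter, day term and arms compared cannot move a difference of arm means in this balanced design. Over the others, differences of the 9 genes stayed within the spread of the same-day differences in 232 of 243 recalculations, and no called difference changed sign. Many of the 232 could not have left it. Leaving out 1 of 3 days cannot move a mean beyond that spread. The mean over probes cannot move a gene with 1 kept probe, and all 14 arrays cannot move the antibody difference from IgG. The count is therefore no measure of robustness. The other 11 came from normexp (6) and from all 14 arrays (5). Calls moved far more. Genes called numbered 5362 with CTLs, 2139 with the antibody against IgG and 27 with the antibody against untreated tumours. They numbered 3294, 1147 and 10 without a filter on dim probes, 1839, 2 and 0 with all 14 arrays, and 837, 912 and 0 with only the 2 arms compared. The antibody comparison with untreated tumours also gave 9 with normexp, 13 with probes above background on all arrays and 6 with day as a random block. Without the day term (no replicate block, hence unpaired) counts were 4944, 1723 and 0, members called were 8, 7 and 0, and other complement genes 8, 6 and 0. Leaving out 1 day gave 661 to 5111, 50 to 1376 and 1 to 18. The cause of these shifts was not tested. The fits of 2 arms and those without 1 day used fewer arrays than the main fit, and the fit of all 14 arrays used more.

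Of the 9 genes, 8, 7 and 1 were called. With all 14 arrays this was 7, 0 and 0, and with only the arms compared 5, 5 and 0. For the antibody against untreated tumours it was also 0 without the filter, with the mean over probes and with the stricter filter, which does not test C5ar1. Leaving out 1 day gave 4 to 7, 1 to 6 and 0 to 1. Of the 22 other complement genes, 9, 6 and 1 were called, 7, 0 and 0 with all 14 arrays, and 5, 2 and 0 with only the arms compared. For the antibody against untreated tumours it was 0 with normexp, without the filter, with the mean over probes and with day as a random block. Leaving out 1 day gave 3 to 11, 0 to 5 and 0 for the antibody against untreated tumours. Dim signals of C5ar1 and C3ar1 limit both receptors.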
